A study of Mus musculus with 8 samples.

Results

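A set of 10 marker genes, most with products on the surface of mouse blood stem cells or released by them, was followed across single bone marrow progenitor cells: Ly6a, Tie1, Procr, Esam, Slamf1, Fgd5, Ctla2a, Ifitm1, Angpt1 and Emcn. They were taken by name from the rows of the 8 deposited count files, and all 10 were found among the 19879 gene names there. In blood formation, stem cells at the top of the hierarchy carry a set of surface proteins that are lost as progenitors commit to the red cell, platelet or myeloid lineages. Several of these proteins are shared with endothelial cells, with which blood stem cells have a common embryonic origin. Ly6a encodes Sca1 and Slamf1 encodes CD150, antigens by which stem cells are sorted. Procr encodes a protein C receptor, Esam and Emcn an adhesion molecule and a sialomucin of endothelium and stem cells, and Tie1 an orphan receptor tyrosine kinase that works beside the angiopoietin receptor Tek. Angpt1 is a secreted ligand of Tek, Ctla2a an inhibitor of cathepsin-like proteases, and Ifitm1 an interferon-induced membrane protein. Fgd5, a guanine nucleotide exchange factor, acts inside the cell and is a stem cell reporter gene in the mouse.

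The cells came from mice heterozygous for Mof (Mof -/+) and from wild type mice. Mof is the older name of Kat8, a histone acetyltransferase. There were 4 groups of 2 libraries: heterozygous plate2, wild type plate2, heterozygous HSC and wild type HSC. The study's design names 768 single cells from 8 sort gates. The stem cell gate was Lin-, Sca1+ and Kit+ without CD34, Flt3 and CD48 and with CD150, and the other gates were of committed progenitors of the red cell, megakaryocyte and granulocyte-monocyte branches, with or without CD150 and mostly Sca1-. Which gates the plate2 libraries hold, well by well, is not labelled, and neither are strain, age, sex or the number of mice. Replicate libraries are therefore not known to be separate animals, and each p-value speaks of the spread among these libraries alone, which may be technical.

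The gene starts of 7 of the 10 genes were matched in RefSeq (GRCm38.p6). Windows of 4 genes are shown, each holding the 250 bases before a RefSeq start, 5′ to 3′ on the gene's strand. Tie1, Procr and Emcn are shown because nearly all of their plate2 transcripts came from wells at the same recurring positions, described below. Slamf1 is shown because its transcripts were less concentrated there. Capitals mark AGGAAG or its reverse complement CTTCCT, the core of ETS family sites, and in Procr CAGCTG, an E-box.
Tie1, chr4:118489850-118490099, minus strand: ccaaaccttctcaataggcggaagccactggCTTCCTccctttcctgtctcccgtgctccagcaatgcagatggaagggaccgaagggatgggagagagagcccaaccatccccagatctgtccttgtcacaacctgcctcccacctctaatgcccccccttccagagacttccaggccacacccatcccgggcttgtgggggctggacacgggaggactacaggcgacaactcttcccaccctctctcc
Procr, chr2:155750967-155751216, plus strand: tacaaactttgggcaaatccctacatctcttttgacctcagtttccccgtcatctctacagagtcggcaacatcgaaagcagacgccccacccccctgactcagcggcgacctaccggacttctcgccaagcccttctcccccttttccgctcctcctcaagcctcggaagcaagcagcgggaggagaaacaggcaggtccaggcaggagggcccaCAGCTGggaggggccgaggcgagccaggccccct
Emcn, chr3:137340828-137341077, plus strand: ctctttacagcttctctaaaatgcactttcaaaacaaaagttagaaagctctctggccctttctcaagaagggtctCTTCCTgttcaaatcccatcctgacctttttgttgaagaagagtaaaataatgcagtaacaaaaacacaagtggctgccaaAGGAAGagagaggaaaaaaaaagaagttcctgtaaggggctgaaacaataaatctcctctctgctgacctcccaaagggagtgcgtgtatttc
Slamf1, chr1:171766882-171767131, plus strand: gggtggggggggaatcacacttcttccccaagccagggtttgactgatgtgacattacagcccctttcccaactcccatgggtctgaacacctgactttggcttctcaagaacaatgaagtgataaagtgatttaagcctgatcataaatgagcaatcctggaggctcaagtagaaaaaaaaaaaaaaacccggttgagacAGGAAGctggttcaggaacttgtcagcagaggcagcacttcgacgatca
Both strands were searched. The ETS letters were found in windows of 5 of the 7 genes (Tie1, Slamf1, Fgd5, Ctla2a and Emcn, of which Ctla2a has 2 windows), against 29.5% of all 32851 RefSeq windows of that length. The GATA letters AGATAA were found in Ctla2a only (9.99% of all windows), CAGCTG in Procr only (13.0%), and the RUNX letters TGTGGT in none of the 7 (14.0%). A match describes the letters and is not a binding site, and Slamf1 and Tie1, which behaved differently across the wells below, both held the ETS letters.

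RNA was read by CEL-Seq2, which reads the 3′ ends of transcripts and uses molecular identifiers to count them, and values are estimated transcript counts. Each file lists more barcodes than a library has wells, of which 96 belong to it. A well was kept with at least 1000 transcripts, which left 417 of 768 wells, from 41 to 68 in a library. Kept wells held 99253 to 720695 transcripts per library. The median well of a plate2 library held from 9011 to 12515 transcripts, and that of an HSC library from 1566.5 to 2977, so shares of wells are given after thinning each well to 1000 transcripts. Kat8 was caught 9 and 12 times in the heterozygous plate2 libraries and 10 and 4 times in the wild type plate2 libraries, and 1 and 2 times in the HSC libraries of either genotype, too few to check the genotype labels. The first wild type HSC library stood apart, with 17370 CPM (transcripts scaled to an equal total in each library) from 16 erythroid genes. It held 5269 CPM from 9 mature neutrophil genes. The other wild type HSC library held 3660 and 0 CPM of these lists. The heterozygous HSC libraries held 4264 and 1821 CPM of the erythroid list, and 1077 and 2086 CPM of the neutrophil list. Cd48, an antigen absent from the stem cell gate, had no transcript in any HSC library, against 10 to 34 in each plate2 library. The endothelial genes that define vessel cells were scarce: Cdh5 had no row, and over all 8 libraries Kdr had 6 transcripts, Cldn5 had 2 and Flt1 had 4. Pecam1 had 97.

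The first comparison set the plate2 libraries against the HSC libraries within each genotype. Ctla2a, Ifitm1 and Tie1 were lower in the plate2 libraries of both genotypes, by between 2.45 and 4.21 on the log2 scale, while Angpt1 did not pass the test in either. Tie1, Procr, Esam and Emcn entered the test through the HSC libraries, where they were high, so their calls between sets are descriptions. Ly6a and Slamf1 encode antigens of the sort, so their values between sets are given as a description. Sets differ in gates, plates, library preparation and depth, which cannot be told apart. In summed libraries, fewer cells of a type and less RNA per cell cannot be told apart either.

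**Figure D1:**
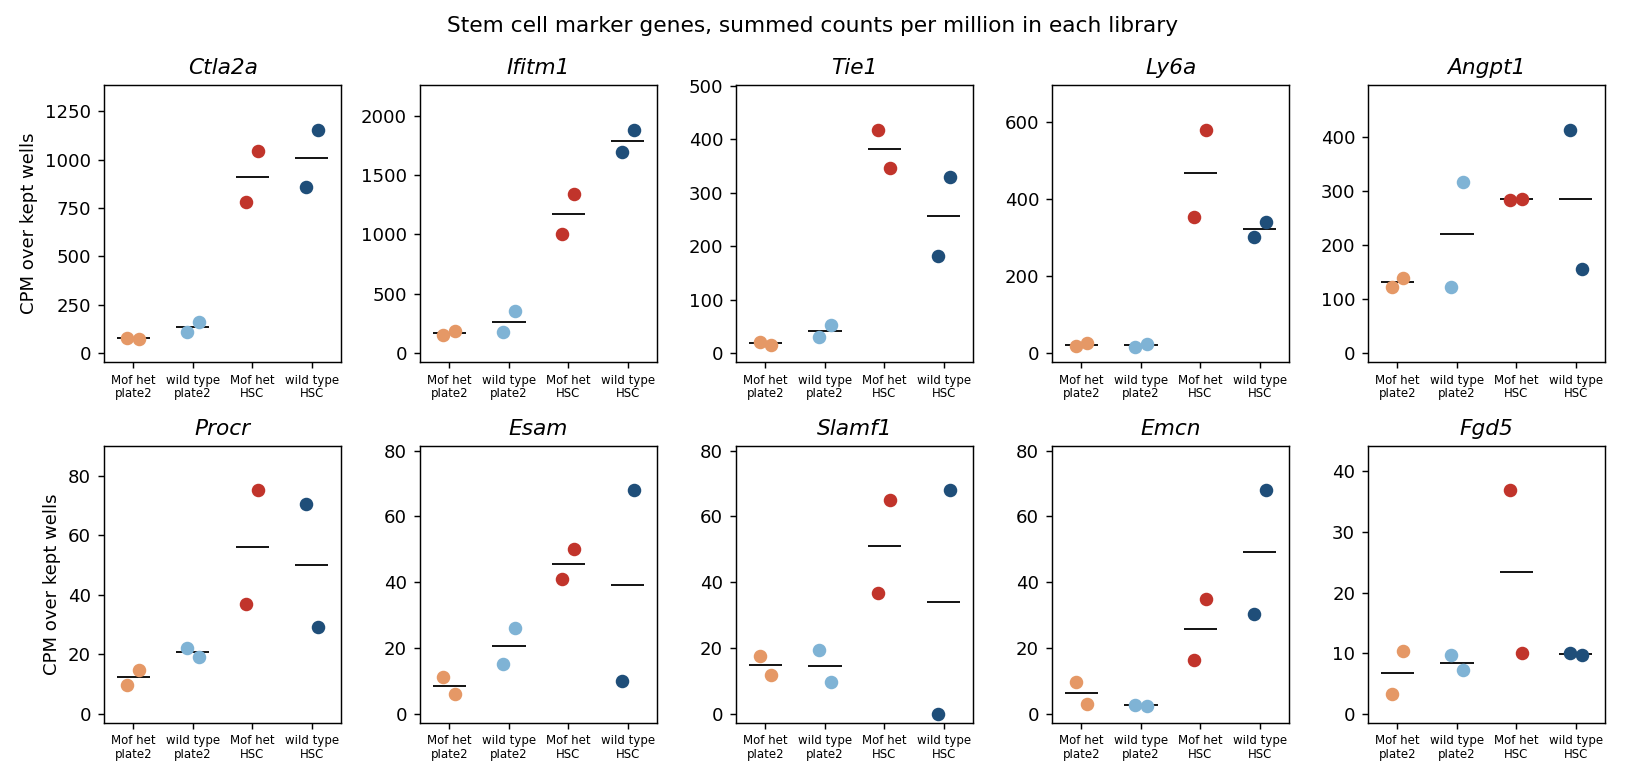
Level of each of the 10 genes in each library, in CPM over kept wells on the vertical axis, with 1 point per library, 2 libraries per group and a bar at their mean. For Ctla2a, Ifitm1, Ly6a, Tie1, Procr and Emcn every plate2 point lies below every HSC point. For Angpt1, Esam, Slamf1 and Fgd5 the sets overlap. The share of all genes separated in this way is not given, here or in the text.

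Among the secreted and membrane proteins, Ctla2a had 76.6 and 73.8 CPM in the heterozygous plate2 libraries, against 778 and 1045 CPM in the heterozygous HSC libraries. In wild type it had 108 and 159.7 CPM in plate2, against 856 and 1155 CPM in HSC. The sets did not overlap, and the log2 change was -3.39 ± 0.32 in heterozygous libraries (adjusted p = 1.23e-06) and -2.67 ± 0.32 in wild type (adjusted p = 1.37e-05; fold change ± SE, edgeR's quasi-likelihood test with Benjamini-Hochberg adjustment over 6678 genes). Ifitm1, the interferon-induced membrane protein, had 153 and 186 CPM in heterozygous plate2, against 1004 and 1341 CPM in heterozygous HSC libraries, and 176 and 350.3 CPM in wild type plate2, against 1693 and 1883 CPM in wild type HSC. It was lower in every plate2 library than in any HSC library, by -2.59 ± 0.33 (adjusted p = 3.37e-05) in heterozygous and -2.52 ± 0.33 (adjusted p = 3.34e-05) in wild type libraries on the log2 scale. Angpt1, the ligand of Tek, had 123 and 139 CPM in heterozygous plate2, against 283 and 285 CPM in heterozygous HSC libraries, and 122 and 317 CPM in wild type plate2, against 413 and 155 CPM in wild type HSC. The wild type libraries of the 2 sets overlapped. Its log2 change was -0.91 (95% interval -1.74 to -0.09, adjusted p = 0.105) in heterozygous and -0.13 (-1.02 to 0.76, adjusted p = 0.866) in wild type libraries. Fitted on the 4 heterozygous libraries alone, Angpt1 was called lower (-0.97, adjusted p = 0.0175), the only one of 20 settings over all positions in which it was.

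Among the receptors, Tie1 had 20.7 and 14.8 CPM in heterozygous plate2, against 418 and 345 CPM in heterozygous HSC libraries, and 29.1 and 52.4 CPM in wild type plate2, against 181 and 330.1 CPM in wild type HSC. All 4 plate2 values lay below all 4 HSC values, with log2 changes of -4.21 ± 0.40 (adjusted p = 1.23e-06) in heterozygous and -2.45 ± 0.41 (adjusted p = 0.000421) in wild type. These p-values of Tie1, and that of Procr below, are descriptions, since both genes entered the test through the HSC libraries. With wells thinned to 1000 transcripts the wild type change of Tie1 was -1.10 and was not called (adjusted p = 0.207). Ly6a had 17.6 and 25.1 CPM in heterozygous plate2, against 352 and 580.2 CPM in heterozygous HSC libraries, and 15.3 and 23.8 CPM in wild type plate2, against 302 and 339.8 CPM in wild type HSC, and the sets did not overlap. Procr, the protein C receptor, had 9.58 and 14.8 CPM in heterozygous plate2, against 36.9 and 75.03 CPM in heterozygous HSC libraries, a change of -1.93 ± 0.58 (adjusted p = 0.0213). In wild type it had 22.2 and 19.1 CPM in plate2, against 70.5 and 29.1 CPM in HSC, and was not called (-0.97, adjusted p = 0.336). Leaving out 1 of 3 libraries (either heterozygous plate2 library or the second heterozygous HSC library) lost the heterozygous call of Procr, with adjusted p between 0.0978 and 0.239.

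The remaining genes rested on few transcripts. Among them, the calls of Esam and Emcn are descriptions, since both entered the test through the HSC libraries. Esam, an adhesion molecule, had 11.2 and 5.90 CPM in heterozygous plate2, against 41.0 and 50.02 CPM in heterozygous HSC libraries, a change of -2.18 ± 0.69 (adjusted p = 0.0293) that was lost on leaving out any of 6 libraries. In wild type Esam overlapped between the sets, with 15.3 and 26.2 CPM in plate2 and 10.1 and 68.0 CPM in HSC. Emcn, the sialomucin, had 9.58 and 2.95 CPM in heterozygous plate2, against 16.4 and 35.0 CPM in heterozygous HSC libraries, and was not called. In wild type it had 2.78 and 2.38 CPM in plate2, against 30.2 and 68.0 CPM in HSC, and passed the test there (-3.83 ± 1.04, adjusted p = 0.0158). That call stood on 3 transcripts in the plate2 libraries and 10 in the HSC libraries, a ratio of 0.0532 with a counting interval of 0.00941 to 0.207, and leaving out either wild type plate2 library, the first heterozygous plate2 library or the second wild type HSC library lost it. Slamf1 had 17.6 and 11.8 CPM in heterozygous plate2, against 36.9 and 65.0 CPM in heterozygous HSC, and 19.4 and 9.53 CPM in wild type plate2, against 0 and 68.0 CPM in wild type HSC. Its wild type HSC libraries lay below and above the plate2 ones, and the library at 0 allows up to 30.2 CPM. Slamf1 was called lower in heterozygous plate2 in 4 of 19 settings (lowest adjusted p = 0.0362). Fgd5 was too low to be tested, with 2 and 7 transcripts in heterozygous plate2, 7 and 3 in wild type plate2, 9 and 2 in heterozygous HSC and 1 and 1 in wild type HSC libraries.

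The number of the 10 genes called lower was 6 in heterozygous libraries, where 10% of all tested genes were called lower, and 5 in wild type, where 7.95% were. Of the 9 genes tested, 6 (Ly6a, Tie1, Procr, Esam, Slamf1 and Emcn) entered the test through the HSC libraries, where they were high, so this count is a description. With no low-count filter all 10 were tested, and the same 6 genes were called lower in heterozygous and the same 5 in wild type libraries. Ly6a is among them. The share of all genes called without the filter is not given here, so this agreement is a description too. Ctla2a, Ifitm1 and Angpt1 were above the expression filter in every library, and Ctla2a and Ifitm1 were called in both genotypes under all 20 settings that used wells at every position. The median log2 change of the tested genes was -2.18 in heterozygous and -2.45 in wild type libraries, beside 0.05 and 0.08 over all genes.

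**Figure D2:**
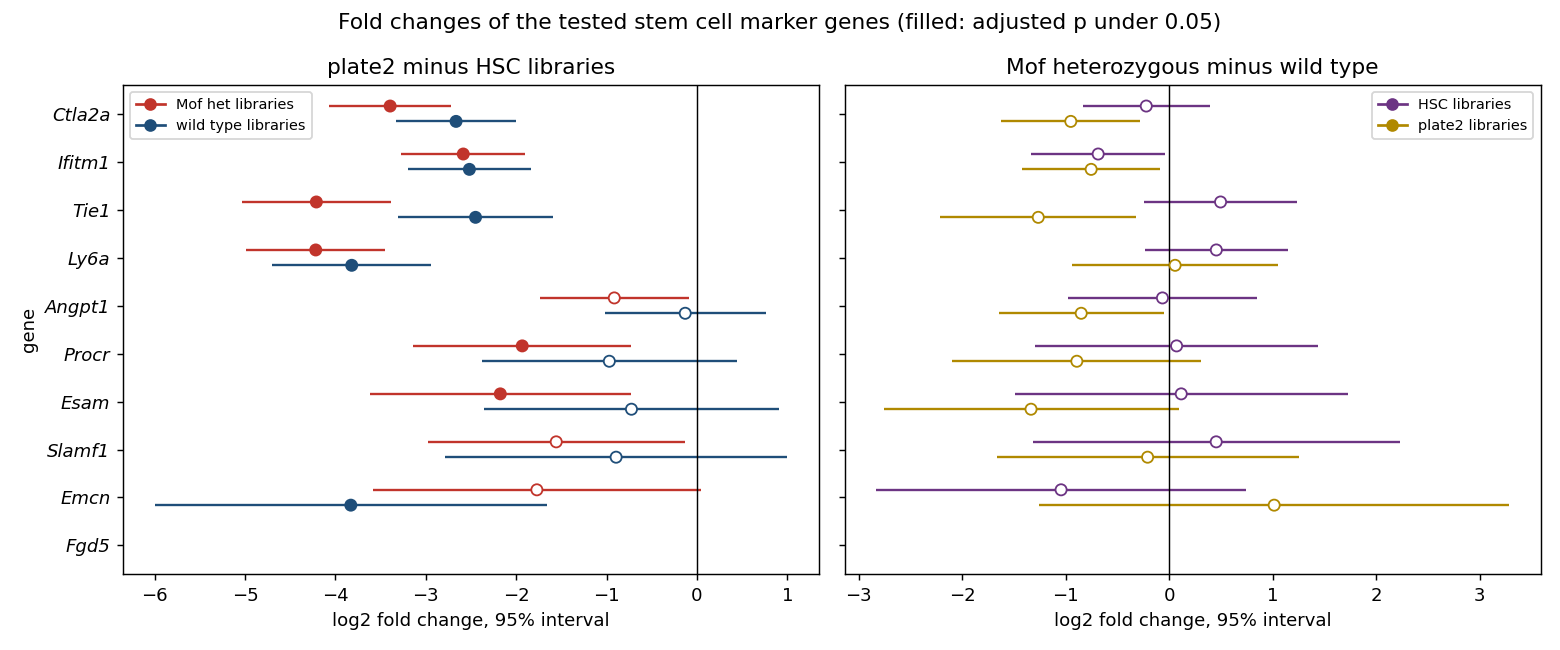
Log2 fold changes with 95% intervals for the 9 tested genes, plate2 minus HSC on the left and Mof heterozygous minus wild type on the right; filled points had an adjusted p under 0.05. The left panel lies below 0 for Ctla2a, Ifitm1, Ly6a and Tie1, and no point on the right is filled.

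A total of 3 members share sequence at their 3′ ends with close relatives, where CEL-Seq2 reads fall. Of the 40-base words in the 3′ end of Ctla2a, 33.9% occur in Ctla2b or another gene, against 18.0% for Ifitm1 (Ifitm2 and Ifitm3) and 17.1% for Ly6a (Ly6c1, Ly6c2 and Ly6i), so the levels of these 3 genes are uncertain. Among the relatives, Ifitm3 was lower in plate2 in both genotypes (-2.20 in heterozygous, -1.86 in wild type), as was Ly6e (-1.01 in heterozygous, -1.65 in wild type). Ly6c2, a myeloid relative of Ly6a, was higher in heterozygous plate2 libraries by 7.23, and Ctla2b was lower there by -2.11. In wild type neither passed the test (1.48 for Ly6c2 and 0.29 for Ctla2b). Fgd5 and Angpt1 each overlap an annotated antisense gene, and Ctla2a overlaps 2 protein-coding models on its own strand. Whether counting used the strand is not given in the sources used here.

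At equal depth, a well of the HSC libraries held more of the 10 genes than a well of plate2. After thinning to 1000 transcripts, at least 1 of the genes was caught in 28 of 91 wells (30.8%) of heterozygous plate2 and 40 of 95 (42.1%) of wild type plate2, against 126 of 135 wells (93.3%) of heterozygous HSC and 88 of 96 (91.7%) of wild type HSC libraries. Averaged over libraries, 0.516 ± 0.00752 of the 10 genes were caught per heterozygous plate2 well and 0.680 ± 0.280 per wild type plate2 well, against 2.22 ± 0.0233 per heterozygous HSC well and 2.31 ± 0.460 per wild type HSC well (SD, n = 2 libraries each). Without thinning, 73.7% of plate2 wells and 99.6% of HSC wells held at least 1 of the genes. As a background, plate2 wells marked by erythroid genes, described below, held at least 1 of the genes in 12.2% at equal depth.

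Ifitm1 was caught in 30 of 186 plate2 wells (16.1%), against 163 of 231 HSC wells (70.6%, exact 95% interval 64.2 to 76.4). Ctla2a was caught in 20 plate2 wells (10.8%), against 136 HSC wells (58.9%), Ly6a in 6 (3.23%) against 72 (31.2%), and Tie1 in 8 (4.30%) against 52 (22.5%). Among these genes Angpt1 had the nearest shares, with 29 plate2 wells (15.6%, 10.7 to 21.6) and 50 HSC wells (21.6%, 16.5 to 27.5), whose intervals overlap. Procr, Esam, Slamf1, Emcn and Fgd5 were caught in at most 17 wells of either set (7.36%). The intervals cover counting error only. In HSC wells Ctla2a and Ifitm1 were caught together in 99 of 231 wells, Ly6a and Ifitm1 in 57, Ly6a and Ctla2a in 45 and Tie1 and Ifitm1 in 45. At least 2 of the genes were caught in 97 of 135 heterozygous HSC wells (71.9%) and 74 of 96 wild type HSC wells (77.1%).

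**Figure D3:**
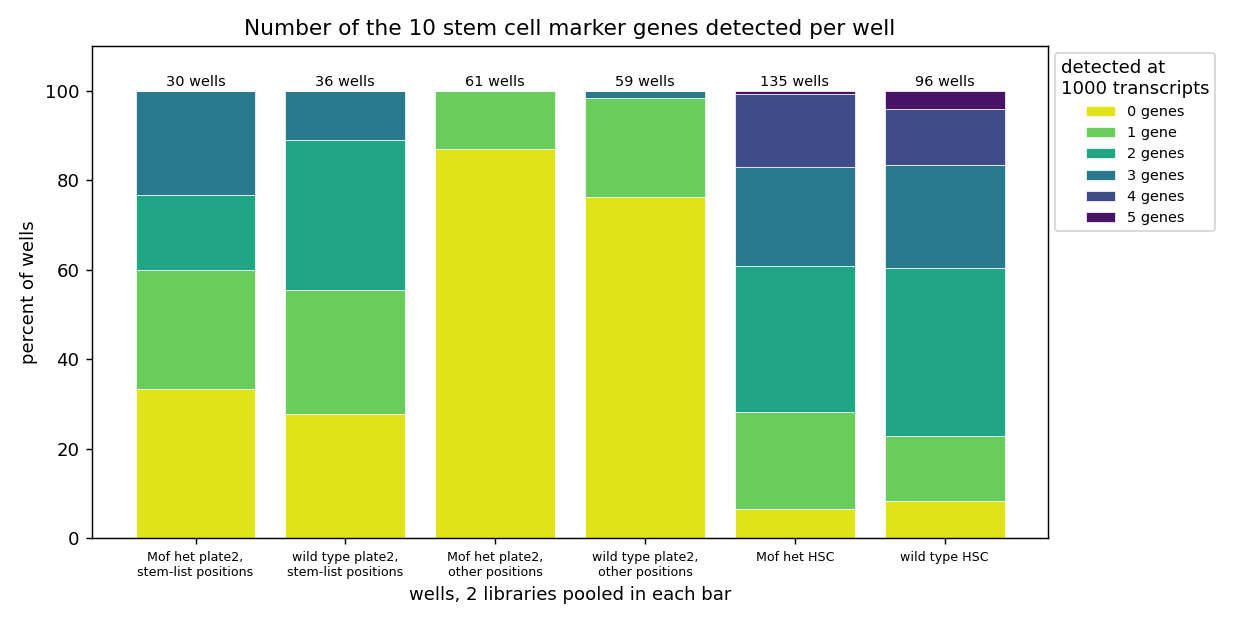
Percent of wells in which 0 to 5 of the 10 genes were caught at 1000 transcripts per well, with the 2 libraries of each group pooled; the plate2 wells are split into the 4 positions described in the text and the others. Most HSC wells held at least 2 of the genes, and most plate2 wells at other positions held none.

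Within the plate2 libraries the genes were concentrated at recurring well positions. Ordering each library's 96 barcodes and counting them off in 16 recurring positions, 4 positions (6, 7, 14 and 15) held 1144 of the 1386 plate2 transcripts of the 10 genes (82.5%), and 25.8% of the plate2 transcripts of all genes. These positions were chosen as the 4 with the highest level of 30 other stem cell genes in the wild type plate2 libraries alone (4.94 to 5.87 per 1000 transcripts, with the next position at 3.17), and are called stem-list positions here. The concentration was not particular to stem cell genes. In the heterozygous libraries these positions also held 81 of 92 and 92 of 115 transcripts of 6 megakaryocyte genes. In wild type they held 28 of 48 and 32 of 43. No label gives the gate of these positions, and the recurrence was noticed in these data. The wild type values are therefore a description, and the positions are tested in the heterozygous plate2 libraries only. The heterozygous libraries were among those in which the recurrence was noticed, so the p-values of these positions are descriptions too.

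Angpt1 had 449.8 and 540.1 CPM at the stem-list positions of the heterozygous libraries, against 30.7 and 35.3 CPM at the other positions, and in wild type 411 and 607.5 CPM against 31.0 and 96.4 CPM. Ifitm1 had 617 and 663 CPM at the stem-list positions of the heterozygous libraries, against 22.5 and 63.1 CPM elsewhere, and in wild type 666 and 624 CPM against 21.9 and 143 CPM. Ctla2a had 261 and 274 CPM there, against 24.6 and 22.3 CPM elsewhere, and in wild type 388 and 309 CPM against 20.1 and 46.1 CPM. In all 4 libraries each of these genes was higher at the stem-list positions. In the heterozygous libraries the log2 difference, stem-list minus other positions, was 3.97 ± 0.30 for Angpt1 (adjusted p = 7e-11), 3.99 ± 0.29 for Ifitm1 (adjusted p = 4.05e-11) and 3.57 ± 0.37 for Ctla2a (adjusted p = 2.53e-08). Of the 5236 genes tested there, 8.38% were called higher. That fit held a single sum per library and class of position, so its spread was mostly borrowed from other genes. Its p-values, here and below, are therefore no measure of replication.

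Ly6a was higher at the stem-list positions of the heterozygous libraries, with 27 transcripts against 1 elsewhere (ratio 100.3, counting interval 16.5 to 4106; log2 6.24 ± 0.78, adjusted p = 8.61e-07). Procr had 15 transcripts there against 1 elsewhere (ratio 55.7, interval 8.57 to 2346; log2 5.40 ± 0.84, adjusted p = 2.33e-05) and Tie1 20 against 3 (ratio 24.8, interval 7.34 to 130.1; log2 4.53 ± 0.67, adjusted p = 1.22e-05). These 3 genes entered the test through the stem-list positions, where they were high, so their p-values are descriptions. Esam, Fgd5 and Emcn had 11, 9 and 8 transcripts there and none elsewhere in the heterozygous libraries, at least 13.6-fold, 11.1-fold and 9.91-fold higher against a floor of 3 counts over the other positions, and were not tested. Slamf1 was the member that did not follow in the heterozygous libraries: 5 of its transcripts were at the stem-list positions and 14 elsewhere. The ratio was 1.33 per transcript sequenced (counting interval 0.374 to 3.90). In wild type, a description, it had 12 transcripts at these positions and 6 elsewhere (ratio 4.45, counting interval 1.54 to 14.4). Over all 4 plate2 libraries 17 of 37 Slamf1 transcripts (45.9%) were at these positions, and 25.8% of the transcripts of all genes. Against this stood 46 of 49 for Ly6a, 60 of 66 for Tie1, 39 of 40 for Procr, 32 of 33 for Esam, 19 of 19 for Fgd5 and 11 of 11 for Emcn. CD150 is also an antigen of 2 of the progenitor gates in the design.

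**Figure D4:**
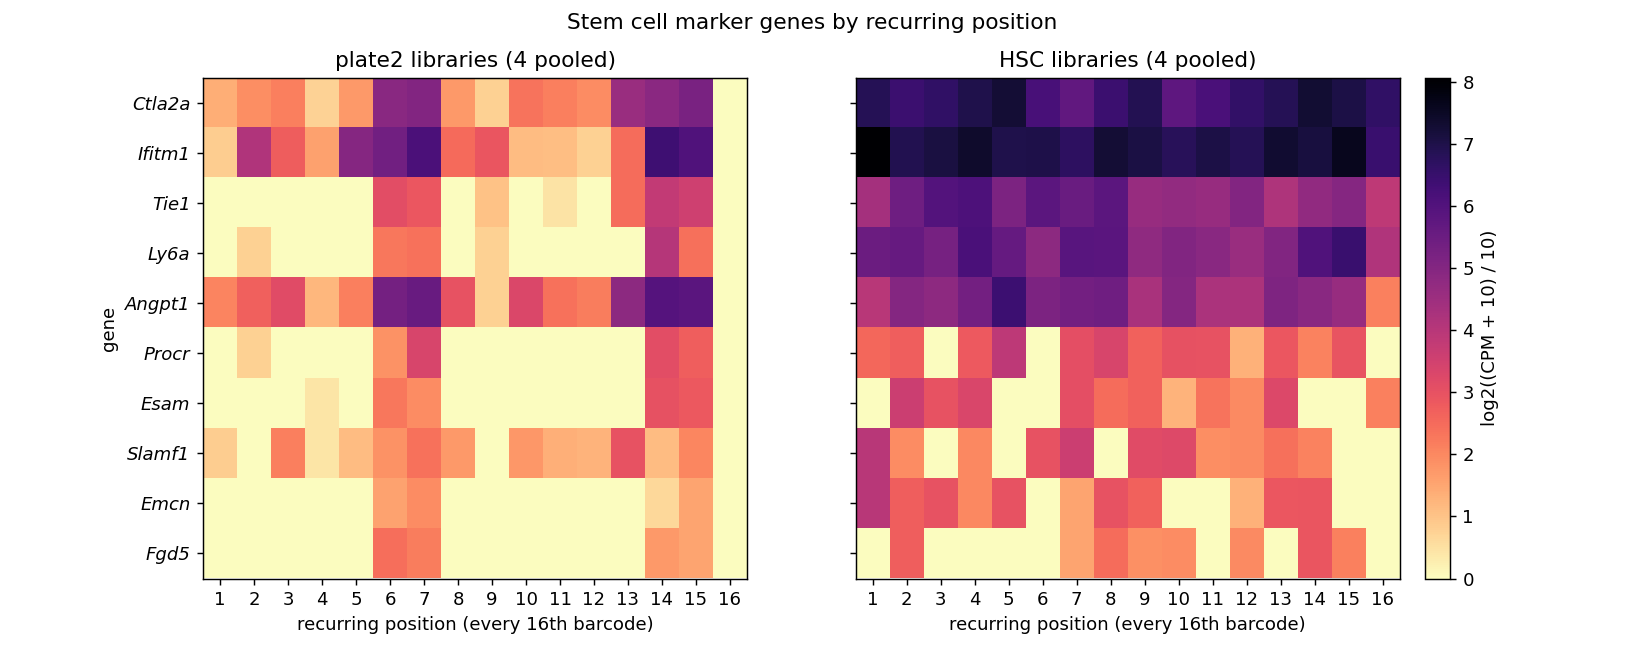
Level of each of the 10 genes (rows) at the 16 recurring positions (columns), as log2((CPM + 10)/10), with the 4 plate2 libraries pooled on the left and the 4 HSC libraries on the right. In plate2 the darkest cells lie at positions 6, 7, 14 and 15 for most genes but not for Slamf1, Ctla2a and Angpt1 are also dark at position 13 and Ifitm1 at positions 2 and 5; in the HSC panel no such columns stand out.

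The sum of the 10 genes at each library and position ran from 1.14 to 3.17 per 1000 transcripts at the stem-list positions of plate2 (median 1.80 over 16 sums) and from 0 to 1.18 elsewhere (median 0.135 over 45 sums). The groups overlapped at their edges. In the HSC libraries the sums at the same positions ran from 2.15 to 8.21 (median 4.22), against 1.98 to 6.68 elsewhere (median 3.77). With position entered as 16 classes in the HSC libraries, Ctla2a and Ifitm1 did not pass the test (adjusted p = 0.66 and 0.978), where 5.26% of 209 genes passed. Blocks of 12 successive barcodes, which cut across the recurrence, gave no call in plate2 among the 3 genes tested (adjusted p = 0.444 for Ctla2a, 0.672 for Ifitm1 and 0.736 for Angpt1), where 0.24% of 2084 passed and 148 had an unadjusted p under 0.05.

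**Figure D5:**
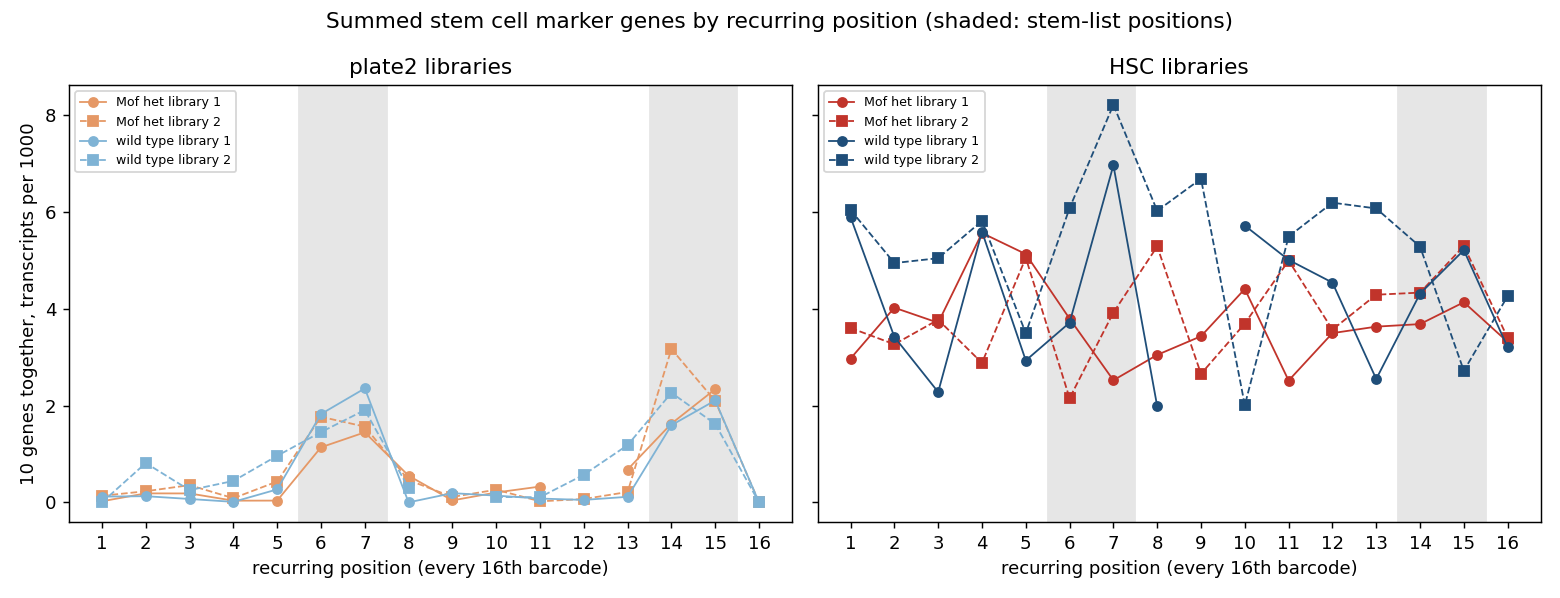
Sum of the 10 genes, in transcripts per 1000 on the vertical axis, at each of the 16 recurring positions, with 1 line per library, plate2 on the left and HSC on the right, and the stem-list positions shaded. The plate2 libraries reach 1.14 to 3.17 in the shaded positions and stay at or under 1.18 elsewhere, while the HSC libraries lie at 1.98 or above at every position.

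At the level of single wells, 20 of 30 heterozygous wells (66.7%, 47.2 to 82.7) and 26 of 36 wild type wells (72.2%) at the stem-list positions held at least 1 of the genes at 1000 transcripts, against 8 of 61 heterozygous wells (13.1%) and 14 of 59 wild type wells (23.7%) at the other positions. Wells with at least 2 of the genes numbered 12 of 30 in heterozygous and 16 of 36 in wild type libraries at the stem-list positions, and 0 of 61 in heterozygous and 1 of 59 in wild type libraries elsewhere. In plate2 wells marked by erythroid genes (at least 5 of 1000 transcripts from that list; 41 wells, 16 of them within 1 transcript of that minimum and 1 at a stem-list position), Ly6a, Procr, Fgd5 and Emcn had no transcript. For a gene caught in 0 of the 41 wells, the count allows a share of wells with a transcript of up to 7.32%, and says nothing of cells expressing it below detection. Tie1 had 1 transcript and Esam 2. Angpt1 had 33 there, Ctla2a 11 and Ifitm1 10, and at least 1 of the genes was caught in 5 of the 41 wells at equal depth (12.2%, 4.08 to 26.2). With at least 10 such transcripts required, 13 wells were marked, Angpt1 had 3 transcripts in them (9.27 CPM, against 38.7 CPM with the lower minimum), and 1 well held a member (7.69%). Wells marked by granulocyte-monocyte genes numbered 17, of which 1 held a member (5.88%). The 128 wells marked by neither list, 65 of them at stem-list positions, held at least 1 in 62 (48.4%, 39.5 to 57.4). Median depth was 21205 transcripts in the erythroid-marked wells and 8834 in the unmarked ones before thinning.

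Set against the HSC libraries, the heterozygous wells at the stem-list positions had lower Ctla2a (-1.53 ± 0.33, adjusted p = 0.00886) and Tie1 (-2.15 ± 0.41, adjusted p = 0.00365). Of the 3879 genes tested there, 1.37% were called lower. Ly6a stood at -2.01 ± 0.40, a description, since its product is an antigen of the stem cell gate. Calls of Ly6a counted below are descriptions too. Angpt1 (1.04, 95% interval 0.28 to 1.79, adjusted p = 0.113), Ifitm1 (-0.64, adjusted p = 0.222) and Procr (0.21, adjusted p = 0.887) did not pass. Between 1 and 3 of the genes were called on leaving out a library: only Tie1 without the first heterozygous plate2 library and only Ly6a without the second. In wild type, a description, the differences were -1.26 for Ctla2a, -2.30 for Ly6a, -0.91 for Tie1, -1.20 for Ifitm1, 1.10 for Angpt1 and 0.73 for Procr. Of the other stem cell genes none of 21 passed in heterozygous libraries, with a median of 0.24.

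The second question was whether the heterozygous genotype changed the 10 genes. No member passed the test, in the HSC libraries (0.015% of tested genes called, 716 with an unadjusted p under 0.05), in plate2 (0.539%, 345) or over both sets (0.12%, 392), nor in the test of the difference between the 2 genotype effects (0%, 613). In the HSC libraries the values ran from -1.04 (Emcn) to 0.50 (Tie1), and Ifitm1 had the lowest p (-0.69, 95% interval -1.33 to -0.04; adjusted p = 0.432), with 1004 and 1341 CPM in the heterozygous libraries and 1693 and 1883 CPM in wild type, which did not overlap. Ly6a was 0.45 (interval -0.23 to 1.14), with 352 and 580.2 CPM in heterozygous and 302 and 339.8 CPM in wild type libraries. In plate2 Ifitm1 was -0.75, Ctla2a -0.95 (adjusted p = 0.498), Tie1 -1.26 (adjusted p = 0.63), Angpt1 -0.85, Esam -1.33, Procr -0.89, Slamf1 -0.21, Ly6a 0.06 and Emcn 1.01. The difference of the 2 effects was -1.76 ± 0.58 for Tie1 (adjusted p = 0.402). For Emcn it had the other sign, between 1.03 and 2.60 over 20 settings. On simulated data of this design, 79% of genes with a 4-fold change and 14% with a 2-fold change were recovered in plate2.

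The wells caught at the stem-list positions differed between libraries. Of the second wild type plate2 library's transcripts 43.2% came from these positions, against 20.5 to 24.0% in the other 3 plate2 libraries. Without that library the plate2 genotype differences were -0.04 for Angpt1, -0.19 for Ifitm1, -0.66 for Ctla2a and -0.85 for Tie1. Within the stem-list positions they were -0.13 for Angpt1, -0.12 for Ifitm1, -0.49 for Ctla2a, -0.75 for Tie1, -0.45 for Procr, -1.02 for Slamf1 and 0.75 for Ly6a, and none passed (0.0258% of 3879 genes did). The 6 megakaryocyte genes summed to 588 to 663 CPM at these positions in heterozygous and 162 to 177 CPM in wild type libraries, and their part in these differences was not tested. Over all positions the 9 mature neutrophil genes summed to 17.7 to 298 CPM in heterozygous plate2 and 2045 to 2663 CPM in wild type plate2 libraries, without overlap; at the stem-list positions they summed to 28.8 to 43.5 CPM in heterozygous and 11.6 to 33.1 CPM in wild type libraries. The wild type HSC library that stood apart also bears on the HSC values: its erythroid and neutrophil lists were above those of the other wild type HSC library, and their part in the genotype values was not tested.

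Other stem cell genes moved in the same direction as the members between the sets. Of 22 tested, 17 were lower and none higher in heterozygous plate2 (Cd27 -2.41, Mecom -2.86, Hlf -2.16), with a median of -1.48, and in wild type 8 were lower (Cd27 -1.98, Hlf -1.66, Ltb -2.34) and 1 higher (Gata2 1.38). At the stem-list positions of heterozygous plate2, 21 of 22 were higher, which the choice of positions favours (Hlf 6.85, Mycn 7.36, Adgrg1 3.52). None was called for genotype, though in plate2 22 of 22 were negative, with a median of -0.57, and at the stem-list positions 11 of 21 were, with a median of -0.04. Among gate antigens at the stem-list positions, Itga2b (CD41, 3.27) and Kit (0.85) were higher, and Cd48 (-2.43) was lower. The genes whose level followed the members' sum most closely over the plate2 libraries and blocks of 12 barcodes were Adgrg1 (Pearson's r = 0.82 on log2(CPM + 50), 31 sums), Tmem176b (0.81), Ifitm3 (0.76), Hlf (0.74) and H2-D1 (0.74). Over the 16 recurring positions (61 sums) they were Hlf (0.77), Adgrg1 (0.76), Pim1 (0.72), Nrgn (0.70) and Zbtb20 (0.70). The sums share libraries and depth, so these are descriptions.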

How the data were processed

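Single-cell RNA was measured by CEL-Seq2 in 8 libraries, 2 in each of 4 groups given by the labelled genotype and the sample title. The deposited values are estimated counts, not scaled for depth, for each barcode: as the deposited values themselves show, the authors corrected the number of molecular identifiers for identifiers seen more than once in a space of 4096 (largest deviation 4.18e-11). BWA 0.6.2-r126 and the build mm10 are per the submitters' processing notes; neither the counter nor the annotation was given in the sources used here, and no row lacked a gene name. Each library's own 96 barcodes were the first or last 96 columns, whichever held more transcripts, and wells with at least 1000 transcripts (spike-ins left out) were kept. Doublets were not called. Counts were rounded to whole numbers, summed per library and tested with edgeR 4.0.16 (R 4.3.3; limma 3.58.1) by its quasi-likelihood test, with TMM scaling, filterByExpr, 4 groups in 1 fit and Benjamini-Hochberg adjustment over all genes tested; 9 of the 10 genes passed the filter. Calls had an adjusted p under 0.05. Detection was read after thinning each well to 1000 transcripts, with exact (Clopper-Pearson) 95% intervals that cover counting error only. DESeq2 1.42.0 was an alternative. Python 3.11.15, numpy 2.4.6, pandas 2.3.3, scipy 1.17.1 and matplotlib 3.10.9 were used for the rest. The fit was tested on simulated data.

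The members and the lists were chosen with earlier results of these data known. Every member is named in each comparison. Other genes named are the gate antigens and close relatives beside a member, up to 4 called genes per direction of the other stem cell list, and the 5 genes most like the members' sum among those with a mean of at least 100 CPM; some genes this rule names are not reported here. Upstream windows are RefSeq's (GRCm38.p6). The HSC libraries' replicate numbers were checked for pairing; their deviations correlated at -0.185 over 3143 genes, so no pairing was used. Replicates differed by more than sampling noise (chi-square per degree of freedom 2.23 to 4.47). Each barcode is shared by 4 libraries.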

Additional observations from a re-analysis of the deposited data

Results flagged for a closer look

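Each file also lists 96 barcodes that its library does not use, and the 10 genes had transcripts there, above the limit that a count of 0 allows. The heterozygous plate2 libraries had 17 and 11 such transcripts and the wild type plate2 libraries 19 and 19. The heterozygous HSC libraries had 156 and 117 and the wild type HSC libraries 114 and 108. On those barcodes the 10 genes stood, in CPM of the transcripts there, at 753 and 673 in heterozygous plate2, 601 and 768 in wild type plate2, 7051 and 5662 in heterozygous HSC and 6297 and 5680 in wild type HSC libraries. Their source was not tested.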

How the results depend on the processing

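No member was called for genotype in any alternative, including a replicate block (0) and a crossed pairing of the HSC replicate numbers (0). For plate2 minus HSC in heterozygous libraries, 6 genes were called, 4 to 7 on leaving out a library, 3 at the stem-list positions (7 members tested) and 2 there after thinning (5 tested); in wild type 5 were called, 4 to 5 on leaving out a library, 3 at the stem-list positions (7 tested, where 7.09% of all genes were lower), 3 there after thinning (5 tested) and 3 with all wells thinned to 1000 (5 tested, 12.3% lower). In the counts of calls against HSC given here, Ly6a is a description, since its product is an antigen of the sort. Procr, heterozygous plate2 minus HSC, turned from -1.93 to 0.21 at the stem-list positions. The cause was not tested. For position, 0 genes were called over blocks. With no low-count filter 2 were (Ctla2a, adjusted p = 0.000153, and Ifitm1, 0.00011), and the share of all genes called there is not given. Over the 16 positions 3 were called, where 31.8% of 1360 tested genes were. That recurrence was noticed in these same libraries, so the count is no support. On leaving out each library the count was 0 over blocks and 3 over the 16 positions. Against HSC, the heterozygous stem-list positions gave 3 calls, and 1 to 3 on leaving out a library. Members detected per heterozygous plate2 well were 0.516, and 0.627 and 0.494 under 2 other seeds, 1.06 at 2000 transcripts, 0.532 with every barcode of the file and 0.576 as the mean over all thinnings. Per heterozygous HSC well they were 2.22, and 2.26 and 2.44 under the seeds, 3.24 at 2000, 2.37 with every barcode and 2.33 as the mean over all thinnings. At 2000 transcripts they were 1.12 in wild type plate2 and 2.95 in wild type HSC wells. Of member values under the alternatives chosen with the design, 900 kept direction and call, 17 lost a call, 7 gained one and 47 changed sign without being called. The stem-list, carry-over, crossed-pairing and 16-position alternatives were chosen after seeing the data. The median HSC well, at 1566.5 to 2977 transcripts, limits Fgd5, Emcn, Slamf1, Esam and Procr to 0 to 15 transcripts per HSC library.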
